A study of Mus musculus with 8 samples.

Results

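The keratin genes of mouse colon adenomas were described in 8 RNA-seq libraries from 2 models. They were taken as every protein-coding gene whose symbol starts with Krt and a number, which gave 51 of the 31189 genes in the count table. The 56 genes for keratin-associated proteins (Krtap) were not included. ApcMin/+ mice, on a C57BL/6J background, hold 1 mutant copy of Apc, whose product restrains WNT signalling. They had no other treatment and were 110 to 120 days old when killed. The AOM/DSS mice were wild-type C57BL/6J animals dosed at an age of 6 to 7 weeks with azoxymethane (AOM), a carcinogen, at 10 mg/kg. They then drank 2% dextran sulfate sodium (DSS), an agent that damages the gut epithelium, in 3 cycles, and tissue was taken on day 70 after AOM. According to the labels, their adenomas carried β-catenin point mutations between codons 32 and 41 that make the protein resist degradation, with wild-type Apc. From each model came 3 whole adenomas and 1 piece of neighbouring non-tumour colon, called the section here. Since the labels tie neither sections nor adenomas to particular mice, each p-value reflects only sample-to-sample spread, which may be partly technical.

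Keratins are the intermediate filament proteins of epithelial cells. A filament is built from pairs of 1 type I (acidic) and 1 type II (basic) keratin, so that each epithelium expresses members of both types. The lining of the colon is a simple epithelium that uses Krt8 with Krt18, Krt19 and Krt20, while other keratins are known from stratified epithelia such as skin and oesophagus, from wound edges, and from hair and nail.

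Of the 51 keratins, 27 were of type I, 23 of type II and 1 (Krt222) was given no type. The expression filter, which asks for about 0.47 CPM (counts scaled to library size) in enough libraries, was passed by 27, and these were tested. Of these 27, 8 passed through adenomas alone (Krt6a, Krt16, Krt32, Krt34, Krt35, Krt39, Krt75 and Krt222), 1 (Krt78) through the sections alone and 18 through groups of both kinds. The 8 reached the test only through the group in which they were high, so counts below are also given for the other 19. Of the 24 that did not pass, 8 had no count in any library and 16 had at most 7 counts in a library. All 6 simple epithelial keratins passed, with 6 of 7 basal and wound-edge keratins, 6 of 13 keratins of differentiating stratified epithelia and 7 of 14 hair and nail keratins. Of 9 keratins of the inner root sheath and companion layer of hair, 1 passed (Krt75, of the companion layer). Matched by symbol to the RefSeq gene table, 27 keratins lay on chromosome 11 and 23 on chromosome 15, and 1 was not matched.

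The promoters of 6 keratins that the results below turn on are shown from RefSeq (build GRCm38.p6), as 250 bases before and 50 after the gene's start, 5′ to 3′ on the gene's strand. They are the simple keratins Krt7, Krt23 and Krt20, and the hair and nail keratins Krt36, Krt84 and Krt34. The Krt34 promoter was added after its motif matches had been seen. Capitals mark matches to 4 motifs: CTTTGAT or CTTTGAA (bound by the WNT factors TCF/LEF), TGANTCA (AP-1) and TTTATG (the intestinal CDX factors), each on both strands, and TATAAA (the TATA box) on the gene's strand.
Krt7: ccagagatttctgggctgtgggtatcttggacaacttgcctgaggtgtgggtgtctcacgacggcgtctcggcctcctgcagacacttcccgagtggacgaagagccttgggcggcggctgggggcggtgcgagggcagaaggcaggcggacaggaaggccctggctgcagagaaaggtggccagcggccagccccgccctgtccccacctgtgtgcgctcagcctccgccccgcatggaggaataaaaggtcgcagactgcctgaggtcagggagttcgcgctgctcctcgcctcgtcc
Krt23: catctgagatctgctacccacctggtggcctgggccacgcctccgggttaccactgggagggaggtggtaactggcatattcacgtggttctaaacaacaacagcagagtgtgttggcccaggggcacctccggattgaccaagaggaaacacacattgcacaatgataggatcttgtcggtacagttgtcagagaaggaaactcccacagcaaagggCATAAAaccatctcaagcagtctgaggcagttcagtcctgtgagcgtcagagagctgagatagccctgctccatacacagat
Krt20: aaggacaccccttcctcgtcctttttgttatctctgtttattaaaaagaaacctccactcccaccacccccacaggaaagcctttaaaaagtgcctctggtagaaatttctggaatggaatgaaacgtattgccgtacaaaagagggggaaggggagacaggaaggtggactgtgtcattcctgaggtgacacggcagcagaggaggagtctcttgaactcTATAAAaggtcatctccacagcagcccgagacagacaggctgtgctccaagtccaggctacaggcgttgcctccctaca
Krt36: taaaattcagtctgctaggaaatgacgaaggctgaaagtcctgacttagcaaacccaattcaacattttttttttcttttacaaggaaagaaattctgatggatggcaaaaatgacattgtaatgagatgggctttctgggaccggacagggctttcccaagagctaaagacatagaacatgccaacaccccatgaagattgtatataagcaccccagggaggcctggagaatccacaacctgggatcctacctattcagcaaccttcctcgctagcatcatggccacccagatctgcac
Krt84: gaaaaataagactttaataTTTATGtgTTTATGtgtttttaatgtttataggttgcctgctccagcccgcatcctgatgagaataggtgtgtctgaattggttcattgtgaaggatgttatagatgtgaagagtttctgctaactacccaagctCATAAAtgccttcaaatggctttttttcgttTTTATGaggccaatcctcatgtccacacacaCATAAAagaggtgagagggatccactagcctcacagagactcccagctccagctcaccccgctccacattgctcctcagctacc
Krt34: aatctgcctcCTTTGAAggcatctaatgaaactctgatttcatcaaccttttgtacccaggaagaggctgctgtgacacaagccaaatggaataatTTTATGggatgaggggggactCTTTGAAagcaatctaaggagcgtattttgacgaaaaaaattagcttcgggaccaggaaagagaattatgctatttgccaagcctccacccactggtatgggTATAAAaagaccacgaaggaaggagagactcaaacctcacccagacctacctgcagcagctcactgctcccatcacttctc
These windows lie at chr15:101412153-101412452 (plus strand), chr11:99493071-99493370 (minus strand), chr11:99438104-99438403 (minus strand), chr11:100105577-100105876 (minus strand), chr15:101532771-101533070 (minus strand) and chr11:100041505-100041804 (minus strand). No match to the 4 motifs stood in the windows of Krt7 and Krt36. Krt20 held a TATA box, Krt23 held 1 CDX match, Krt84 held 5 CDX matches, and Krt34 held 2 TCF/LEF matches, 1 CDX match and a TATA box. Promoters were found for 35 of the 51 keratins, in 36 windows. A TCF/LEF match stood in 7 of the 36 (19.4%) and in 8.65% of all 32851 promoters in the table. An AP-1 match stood in 2 of 36 (5.56%) and in 7.81% of all. A CDX match stood in 16 of 36 (44.4%) and in 11.9% of all, and a TATA box in 17 of 36 (47.2%) and in 8.32% of all. Of the 24 CDX matches in keratin windows none shared bases with a TATA box match, but 4 were the reverse form, CATAAA, starting 20 to 35 bases before the gene's start. Neighbouring keratin genes are related copies, so their promoters are not independent, and a match is a stretch of letters and not a bound site.

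Library totals ranged from 18156741 to 22719895 counts, and the limit set by a count of 0 (3 counts) was 0.132 to 0.165 CPM, for counting error only. Keratins took 0.462% to 0.762% of all counts. Apc, the mutated gene, had 151, 154 and 150 CPM in ApcMin/+ adenomas against 132 in their section, and 107, 112 and 152 CPM in AOM/DSS adenomas against 98.8 in their section; counts do not separate the alleles. Ctnnb1, which encodes β-catenin, had 1907, 2055 and 1649 CPM in ApcMin/+ adenomas against 940 in the section, and 1087, 1100 and 1432 CPM in AOM/DSS adenomas against 764. Summed over 8 smooth muscle markers the adenomas had 541 to 1718 CPM in ApcMin/+ and 224 to 429 CPM in AOM/DSS, against 5996 and 8506 CPM in the sections. Over 12 colonocyte markers they had 103 to 660 CPM and 112 to 341 CPM, against 3753 and 1467 CPM. Among the ApcMin/+ adenomas, adenoma 3 stood nearest to the section on both sums. In whole tissue, fewer cells of a type and less RNA per cell cannot be told apart, and the part of these markers in the keratin results was not tested.

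The keratins that dominate normal colon stood lower in every adenoma than in either section. Krt8, the main type II keratin of simple epithelia, had 1523, 1922 and 2706 CPM in ApcMin/+ adenomas against 3881 CPM in the section. In AOM/DSS adenomas it had 2423, 2201 and 2095 CPM against 4094 CPM in the section. Krt19, a type I simple keratin, had 1294, 1588 and 2115 CPM in ApcMin/+ adenomas against 2655 CPM in the section. It had 2038, 1601 and 1447 CPM in AOM/DSS adenomas against 2704 CPM in the section. The groups of adenomas and sections did not overlap for either gene. Over 6 adenomas and 2 sections, Krt8 fell by 0.90 ± 0.20 on the log2 scale (SE, edgeR adjusted p = 0.0146) and Krt19 fell by 0.67 ± 0.20 (adjusted p = 0.0382). Within the models neither passed (Krt8 adjusted p = 0.077 and 0.119, Krt19 0.16 and 0.197). Scaled to 16 epithelial genes in place of all genes, which moved the median of all genes to 0.81, Krt8 had -0.18 (adjusted p = 0.361) and Krt19 had 0.04 (adjusted p = 0.837), so the direction of Krt19 turned. That scale sums the counts of the 16 genes, and Lgals4 gave the most counts in both sections. Lgals4 had 549, 794 and 1847 CPM in ApcMin/+ adenomas against 4318 CPM in the section. In AOM/DSS adenomas it had 2080, 1680 and 1632 CPM against 4368 CPM. The part of Lgals4 in these values was not tested. Scaled to Epcam and Cdh1 alone, with the median of all genes at 0.29, Krt8 had -0.68 (adjusted p = 0.0243) and Krt19 -0.46 (adjusted p = 0.0974). Of the transcript of Krt8, 26.9% is shared with its pseudogene Krt8-ps in stretches of 50 bases, so reads could be split between them.

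Krt7 and Krt23 stood higher in the adenomas. Krt7, a type II keratin known from ducts, had 497, 621 and 481 CPM in ApcMin/+ adenomas against 165 CPM in the section. It had 473, 319 and 464 CPM in AOM/DSS adenomas against 206 CPM in the section. Krt7 rose in ApcMin/+ adenomas by 1.69 ± 0.31 (edgeR adjusted p = 0.0229), and in AOM/DSS adenomas it stood 1.02 ± 0.29 higher without passing (adjusted p = 0.0809). Krt23, a type I keratin, had 229, 262 and 162 CPM in ApcMin/+ adenomas against 14.6 CPM in the section. It had 85.8, 73.9 and 135 CPM in AOM/DSS adenomas against 13.8 CPM in the section. The 2 sections had nearly the same level, and every adenoma stood far above both. Krt23 rose by 3.89 ± 0.50 (adjusted p = 0.0127) in ApcMin/+ and by 2.83 ± 0.47 (adjusted p = 0.0328) in AOM/DSS. Krt18, the type I partner of Krt8, had 610, 775 and 583 CPM in ApcMin/+ adenomas against 386 CPM in the section, and 552, 379 and 568 CPM in AOM/DSS adenomas against 410 CPM. It did not pass in either model (adjusted p = 0.111 and 0.535), and AOM/DSS adenoma 2 lay below its section. Krt20, which marks differentiated cells of the intestinal lining, had 32.6, 30.4 and 219 CPM in ApcMin/+ adenomas against 410 CPM in the section, and 29.8, 182 and 41.3 CPM in AOM/DSS adenomas against 414 CPM. All 6 adenomas lay below both sections, but 1 adenoma of each model lay far above the others. Over 6 adenomas and 2 sections Krt20 did not pass (-2.21 ± 0.84, adjusted p = 0.0772), and without ApcMin/+ adenoma 3 it had -3.02 (adjusted p = 0.0172).

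**Figure D1:**
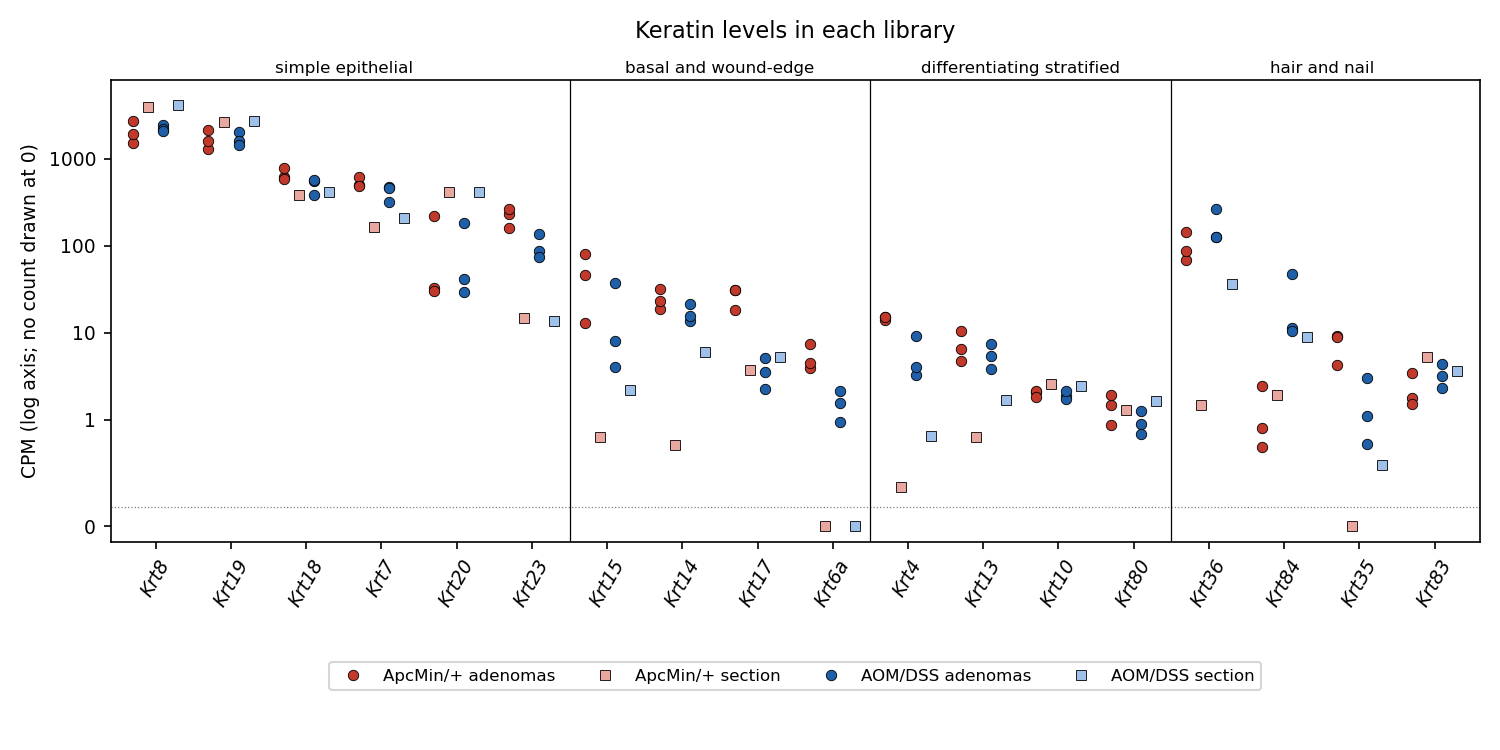
CPM (log axis, with no count drawn at 0) of the 18 tested keratins with a mean of at least 1 CPM, by keratin class, with circles for adenomas and squares for sections. Krt8 and Krt19 have at least 1294 CPM in all 8 libraries, and Krt23, Krt7 and Krt36 stand higher in every adenoma than in the section of its model.

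The make-up of keratin mRNA differed between adenomas and sections. Per length, as FPKM (the authors' deposited values, scaled for gene length and depth), Krt7 stood at 0.249 to 0.456 of Krt8 in ApcMin/+ adenomas against 0.0576 in the section. In AOM/DSS adenomas the ratio was 0.199 to 0.299 against 0.0557 in the section. The ratio of Krt18 to Krt19 was 0.248 to 0.447 in ApcMin/+ adenomas against 0.129, and 0.201 to 0.357 in AOM/DSS adenomas against 0.146. Type I over type II keratin FPKM, summed over all members, was 1.10 to 1.21 (mean 1.16 ± 0.055, SD, n = 3) in ApcMin/+ adenomas against 0.938 in the section. It was 0.979 to 1.12 (mean 1.05 ± 0.0694, SD, n = 3) in AOM/DSS adenomas against 0.853 in the section. Keratins other than the 6 simple ones made up 4.45% to 7.78% of keratin FPKM in ApcMin/+ adenomas against 0.297%, and 4.01% to 6.65% in AOM/DSS adenomas against 1.06%. These ratios describe single sections and were not tested.

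**Figure D2:**
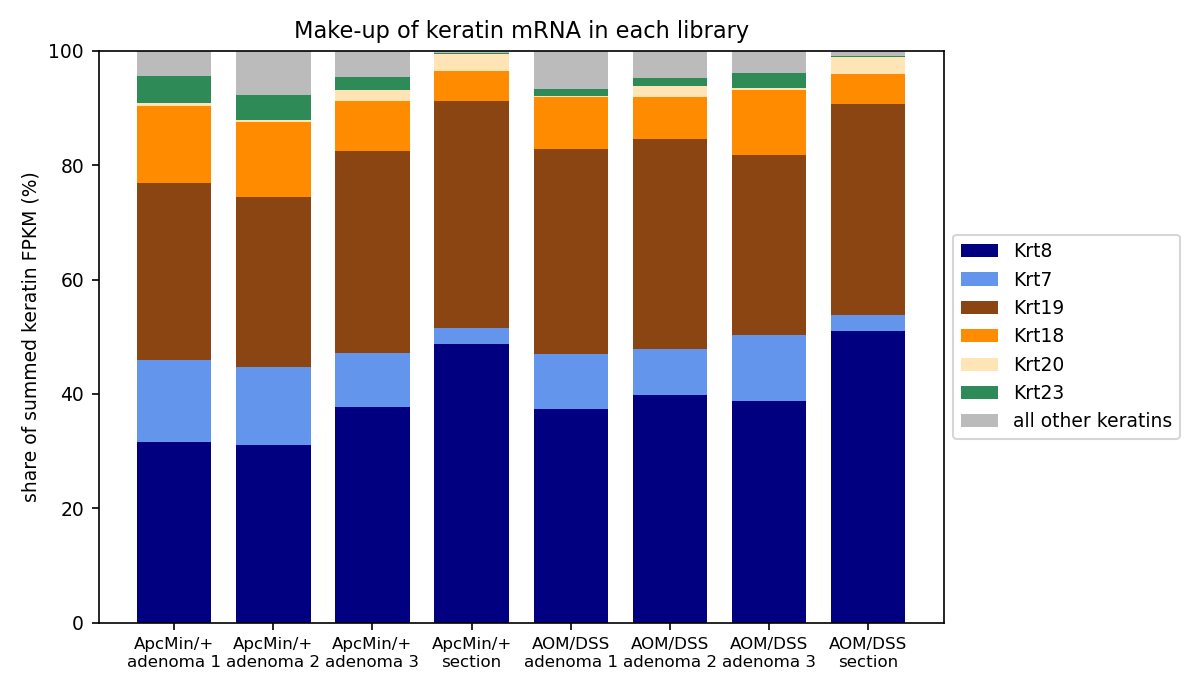
Share of the summed keratin FPKM (%) held by each simple keratin and by all other keratins together, in each library. Krt8 holds 31% to 39.9% in the adenomas, where Krt7 and Krt23 take larger shares, and 48.7% and 51.0% in the sections.

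The comparison of ApcMin/+ adenomas with their section sets adenoma against non-adenoma tissue, both from ApcMin/+ mice. Of the 27 tested keratins, 10 were higher and none was lower by edgeR's quasi-likelihood test at an adjusted p under 0.05, where 10.1% of all 17218 tested genes were higher, 6.35% lower and 16.4% either. The 10 were 2 of 6 simple keratins (Krt7 and Krt23), 3 of 6 basal and wound-edge keratins, 2 of 6 differentiating keratins and 3 of 7 hair and nail keratins. Krt6a, Krt34 and Krt35 were among the 8 that passed the filter through adenomas alone. Of the other 19 keratins 7 were higher (36.8%), against 10.1% of the 16108 genes that likewise reached the filter level in at least 1 section. The median log2 change was 0.77 for these 19 keratins and 0.00 for these genes.

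Among basal and wound-edge keratins, Krt14, Krt17 and Krt6a rose in ApcMin/+ adenomas, and Krt6a in AOM/DSS adenomas. Krt14, the type I partner of Krt5 in the basal layer of skin, had 18.6, 31.6 and 23.2 CPM in ApcMin/+ adenomas against 0.516 CPM in the section, a log2 change of 5.55 ± 0.57 (adjusted p = 0.00988). It had 13.6, 21.4 and 15.6 CPM in AOM/DSS adenomas against 6.00 CPM in the section (1.49 ± 0.41, adjusted p = 0.0758). Krt5 itself had at most 16 counts in a library, and no comparison called it. Krt17, a type I keratin induced in wounded skin, had 30.9, 30.7 and 18.1 CPM in ApcMin/+ adenomas against 3.73 CPM in the section (2.83 ± 0.59, adjusted p = 0.0307). In AOM/DSS adenomas it had 2.27, 3.57 and 5.16 CPM against 5.25 CPM in the section (-0.52 ± 0.49, adjusted p = 0.509). Adenoma 3 lay just below that section in CPM but above it in FPKM (9.24 against 8.91), and the log2 change turned to 0.13 when scaled to the epithelial genes (adjusted p = 0.875). Krt6a, a type II keratin of wound edges, had 87, 168 and 98 counts in ApcMin/+ adenomas against 0 in the section, at least 30.8-fold higher (adjusted p = 0.0145). It had 50, 29 and 22 counts in AOM/DSS adenomas against 0 in the section, at least 10.3-fold higher (adjusted p = 0.0352). Like Krt16, Krt6a passed the filter only through adenomas. Krt15, a basal keratin, had 12.8, 80.9 and 45.9 CPM in ApcMin/+ adenomas against 0.630 CPM, and 36.9, 8.0 and 4.09 CPM in AOM/DSS adenomas against 2.20 CPM. The groups did not overlap in either model, but Krt15 varied widely between adenomas and did not pass (adjusted p = 0.0752 and 0.274). Krt16 had 4 to 16 counts in adenomas and at most 5 in a section and was not called. Krt6a shares 45.5% of its transcript with Krt6b and other genes, and Krt14 shares 14.4% with Krt16 and Krt17, so their counts could be mixed.

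Among keratins of differentiating stratified epithelia, the mucosal pair Krt4 and Krt13 rose in ApcMin/+ adenomas. Krt4, the type II member, had 337, 316 and 330 counts in ApcMin/+ adenomas against 3 in the section, a ratio of 86.0 (95% exact counting interval 29.4 to 418, adjusted p = 0.0152). It had 9.31, 3.31 and 4.01 CPM in AOM/DSS adenomas against 0.650 CPM (3.08 ± 0.73, adjusted p = 0.0582). Krt13, the type I member, had 4.81, 6.56 and 10.4 CPM in ApcMin/+ adenomas against 0.630 CPM (3.51 ± 0.71, adjusted p = 0.0291). It had 5.45, 7.52 and 3.84 CPM in AOM/DSS adenomas against 1.70 CPM (1.71 ± 0.62, adjusted p = 0.125). The deposited FPKM per count of Krt13 varied 4.47-fold between libraries, so its FPKM is given no value here; in the sums above it holds at most 0.636% of keratin FPKM. Krt10, of the upper layers of skin, had 1.83 to 2.17 CPM in ApcMin/+ adenomas against 2.58 CPM, and 1.76 to 2.17 CPM in AOM/DSS adenomas against 2.45 CPM. Krt80 had 0.886 to 1.92 CPM in ApcMin/+ adenomas against 1.32 CPM, and 0.682 to 1.28 CPM in AOM/DSS adenomas against 1.65 CPM, and neither gene was called. Krt78 had 3 to 6 counts in ApcMin/+ adenomas against 21 in the section, and 3 to 8 counts in AOM/DSS adenomas against 37; over both models it fell by 2.74 ± 0.49 (adjusted p = 0.00827). Krt12, known from the cornea, had 4 to 9 counts in ApcMin/+ adenomas against 1, and 8 to 35 counts in AOM/DSS adenomas against 81, and was not called.

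Among hair and nail keratins, Krt34, Krt35 and Krt36 rose in ApcMin/+ adenomas. Krt36, a type I hair keratin, had 67.8, 142 and 87.3 CPM in ApcMin/+ adenomas against 1.49 CPM in the section (6.05 ± 0.84, adjusted p = 0.0141). In AOM/DSS adenomas it had 263, 125 and 125 CPM against 36.0 CPM in the section (2.25 ± 0.63, adjusted p = 0.0774). Krt35, of the hair matrix, had 94, 209 and 198 counts in ApcMin/+ adenomas against 0 in the section, at least 43.8-fold higher (adjusted p = 0.0294). It had 70, 10 and 26 counts in AOM/DSS adenomas against 6 in the section (adjusted p = 0.218). Krt34, of the hair cortex, had 21, 38 and 24 counts in ApcMin/+ adenomas and 0 in the other 5 libraries, at least 7.24-fold higher than in the ApcMin/+ section (adjusted p = 0.0456). This call was lost in 7 of 16 alternatives, DESeq2 (adjusted p = 0.0656) and the removal of any 1 of the ApcMin/+ adenomas among them, with an adjusted p of at most 0.114. Krt32 had 12, 22 and 14 counts in ApcMin/+ adenomas and 12, 2 and 3 in AOM/DSS adenomas against 0 in both sections. It was called higher over the 6 adenomas (adjusted p = 0.0216) but in neither model alone (adjusted p = 0.0637 and 0.15). Krt32, Krt34 and Krt35 passed the filter only through adenomas, where they were high. Krt39 had at most 12 counts and Krt75, of the hair companion layer, at most 12, and neither was called. Krt83 had 1.77, 1.51 and 3.48 CPM in ApcMin/+ adenomas against 5.27 CPM, and 4.38, 3.20 and 2.30 CPM in AOM/DSS adenomas against 3.65 CPM, and was not called. Krt34 shares 33.1% of its transcript with Krt31, Krt33a and Krt33b, and Krt83 shares 23.2% with Krt81 and Krt86, whereas Krt36 shares 0.432%.

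Markers of squamous epithelium and of hair follicle were measured beside these keratins. Trp63, the factor that defines squamous basal cells, had at most 2 counts in any library. Over 18 squamous markers, 4 without a count anywhere, the sum was 84.1 to 123 CPM in ApcMin/+ adenomas against 126 CPM, and 139 to 210 CPM in AOM/DSS adenomas against 133 CPM. Serpinb5 alone gave 37.8 to 89.7 CPM in ApcMin/+ adenomas against 105 CPM, and 90.1 to 99.9 CPM in AOM/DSS adenomas against 107 CPM. Without it, a choice made after its values were seen, the sum was 33.6 to 46.3 CPM in ApcMin/+ adenomas against 20.6 CPM, and 45.9 to 111 CPM in AOM/DSS adenomas against 26.6 CPM. Among squamous markers with 10 or more counts in a library, Dsg3, Dsc3, Lor, Ivl, Sbsn, Dmkn and Ly6d stood above the section in every adenoma of both models. Serpinb5 and Spink5 did not. Of 8 tested squamous markers, 1 (Dsg3) was called higher in ApcMin/+ adenomas, where 10.1% of all genes were. In AOM/DSS adenomas 0 were called higher, where 2.38% of all genes were. Ivl had only 1, 2 and 2 counts in AOM/DSS adenomas against 0 in the section, and Lor had at most 13 counts in any library. Each section is a single library, and the share of all genes that stood above it in this way was not counted. Dsg3, a desmosomal cadherin of squamous epithelium, had 36, 45 and 38 counts in ApcMin/+ adenomas against 0 in the section (adjusted p = 0.0317), and 399, 459 and 146 counts in AOM/DSS adenomas against 37 (adjusted p = 0.0692). Over both models Dsg3 and Dsc3 rose (adjusted p = 0.0142 and 0.0126), and Spink5 fell (adjusted p = 0.0272). Over 12 hair follicle markers the sum was 5.13 to 8.29 CPM in ApcMin/+ adenomas against 2.64 CPM, and 3.11 to 24.3 CPM in AOM/DSS adenomas against 5.30 CPM. Dsg4 alone gave 3.49 to 5.54 CPM in ApcMin/+ adenomas against 0.0573 CPM, and 1.49 to 20.4 CPM in AOM/DSS adenomas against 0.600 CPM. Tchh had 10, 40 and 50 counts in ApcMin/+ adenomas against 41, and 6, 10 and 10 in AOM/DSS adenomas against 35. The sum is therefore not read as a rise of the list. Of the 12 hair follicle markers, 5 had no count anywhere, Hoxc13 among them, and Krtap3-1 had 41 counts in the AOM/DSS section and at most 1 elsewhere. The part of either cell type in the keratin results was not tested.

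**Figure D3:**
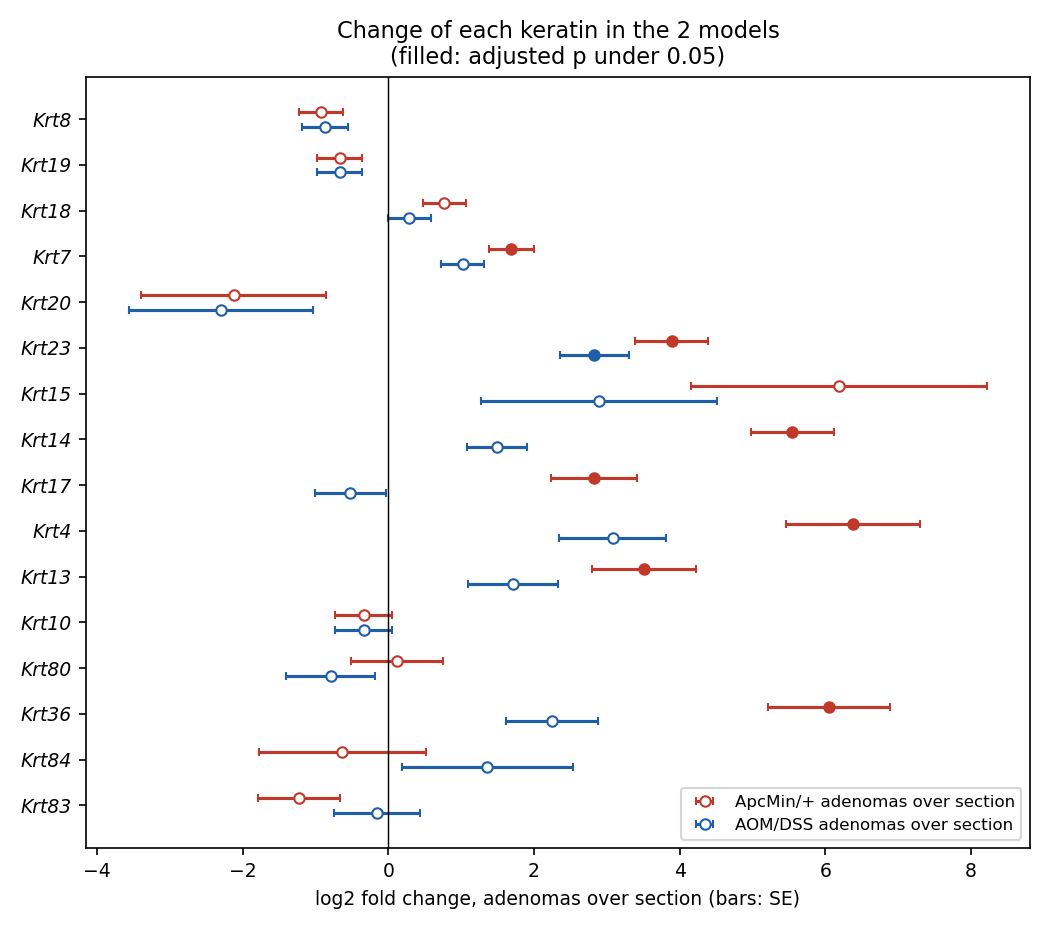
Log2 fold change (adenomas over section, bars SE) in the ApcMin/+ model (red) and the AOM/DSS model (blue) for 16 keratins with a count in both sections; filled circles passed an adjusted p of 0.05. Krt14, Krt36 and Krt4 stand farther right in ApcMin/+, and Krt17 lies above 0 in ApcMin/+ and near 0 in AOM/DSS, where its sign turned with the scaling to epithelial genes.

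In AOM/DSS adenomas against their section, 2 of the 27 keratins were higher, Krt23 and Krt6a, and none was lower, where 2.38% of all genes were higher, 2.63% lower and 5.01% either. Krt6a passed the filter through adenomas alone, and its call was lost in 7 of 16 alternatives. Of the other 19 keratins 1 was higher (5.26%), against 2.43% of the genes that reached the filter level in at least 1 section, and the median log2 change was -0.15 for these keratins and 0.10 for these genes. DESeq2 called 7 keratins here, 6 higher and 1 lower, adding Krt4, Krt7, Krt14, Krt36 and Krt8, where it called 16.9% of all genes against 5.01% by edgeR. The edgeR count was 0 without ApcMin/+ adenoma 1 or 2 or AOM/DSS adenoma 1 or 3, and 1 without AOM/DSS adenoma 2, where 0% to 1.76% of all genes were called. In the ApcMin/+ comparison, leaving out adenoma 1 or adenoma 2 left 5 of the 10 keratins: Krt4, Krt6a, Krt14, Krt23 and Krt36, where 2.32% and 2.06% of all genes were called. Without adenoma 3, where 25.8% of all genes were called, it called 13, of which 10 were higher, with Krt16 added and Krt34 lost, and 3 lower, with Krt8 (-1.17, adjusted p = 0.0182), Krt20 (-3.70, adjusted p = 0.0432) and Krt78 (-3.11, adjusted p = 0.0414) now past the threshold.

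Over 6 adenomas against 2 sections, with the model as a term, 12 keratins were called: 9 higher and 3 lower, where 18.3% of all genes were higher, 15.8% lower and 34.1% either. The 9 were Krt4, Krt6a, Krt7, Krt13, Krt14, Krt23, Krt32, Krt34 and Krt36, and the 3 were Krt8, Krt19 and Krt78. The largest of these with counts in both sections were Krt4 (4.27 ± 0.84, adjusted p = 0.0102), Krt36 (3.42 ± 0.90, adjusted p = 0.0246) and Krt23 (3.32 ± 0.40, adjusted p = 0.00473). Krt7 rose by 1.34 ± 0.24 (adjusted p = 0.00821), Krt13 by 2.45 ± 0.57 (adjusted p = 0.0164) and Krt14 by 2.73 ± 0.85 (adjusted p = 0.0411). Krt6a, Krt32 and Krt34 passed the filter through adenomas alone, and Krt34 was not called by DESeq2 (adjusted p = 0.178). Of the other 19 keratins 6 were higher (31.6%) and 3 lower (15.8%), against 18.4% and 16.9% of the genes that reached the filter level in at least 1 section. The median log2 change was 0.30 for these keratins and 0.03 for these genes. Scaled to the epithelial genes the split was 13 higher and 1 lower, and scaled to Epcam and Cdh1 alone 13 and 2. Both scalings also raised the median log2 change of all genes. With the epithelial genes most of all called genes were higher (share given at the end), so these splits are not read as a keratin result. This fit is not independent of the 2 above, since it uses the same libraries.

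The adenomas of the models were also set against each other. Of the 27 keratins, 1 was higher and 4 were lower in AOM/DSS than in ApcMin/+ adenomas, where 10.2% of all genes were higher, 7.90% lower and 18.1% either. Krt84, a type II keratin of nail and tongue papillae, was higher, with 11.2, 48.0 and 10.6 CPM in AOM/DSS adenomas against 0.817, 0.487 and 2.47 CPM in ApcMin/+ adenomas (4.20 ± 0.88, adjusted p = 0.0239). Its sections stood apart too, at 9.06 CPM in AOM/DSS against 1.95 CPM in ApcMin/+, and in neither model did Krt84 pass against the section (adjusted p = 0.463 and 0.72). Krt17 was lower (-2.85 ± 0.37, adjusted p = 0.00758), with 2.27 to 5.16 CPM in AOM/DSS adenomas against 18.1 to 30.9 CPM in ApcMin/+ adenomas. Krt34 was lower, with 0 counts in each AOM/DSS adenoma (adjusted p = 0.0136), but it passed the filter only through ApcMin/+ adenomas, the group in which it was high. Krt23 was lower by less (-1.14 ± 0.28, adjusted p = 0.0344), as was Krt6a (-1.77 ± 0.43, adjusted p = 0.0348), which passed the filter through adenomas alone. Of the 19 keratins that reached the filter level in at least 1 section, 1 was higher (5.26%) and 2 were lower (10.5%). Of all genes that likewise reached it, 10.4% were higher and 8% lower. For Krt4 (-1.41, adjusted p = 0.0547) and Krt35 (-2.27, adjusted p = 0.0554) the test was just missed. Without ApcMin/+ adenoma 2 only Krt17 was called, and without adenoma 1 only Krt17 and Krt34. Without AOM/DSS adenoma 2 the calls were Krt17, Krt34 and Krt84, and without AOM/DSS adenoma 1 they were Krt4, Krt6a, Krt17, Krt34, Krt35 and Krt84. Without adenoma 3 of either model they were Krt17, Krt23, Krt34 and Krt84. The share of all genes called in these refits is not given here, so lost or gained calls are not read as a keratin result. Krt84 without AOM/DSS adenoma 2, its highest library, had a log2 change of 3.12 (adjusted p = 0.036).

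**Figure D4:**
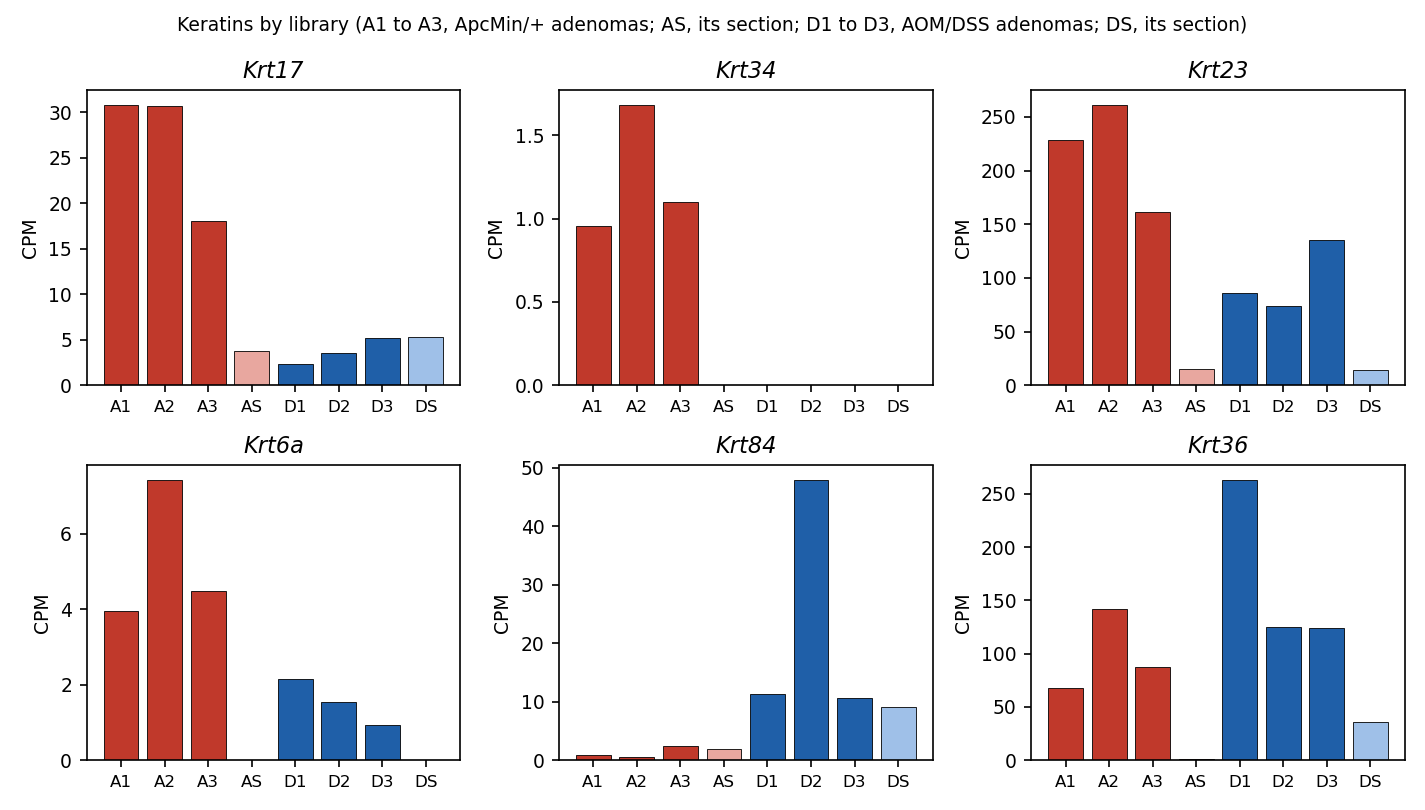
CPM in each library of the 5 keratins called between the adenomas of the models, and of Krt36, which was chosen after its values were seen. Krt17 and Krt34 are high in the 3 ApcMin/+ adenomas alone, and Krt84 is highest in AOM/DSS adenoma 2.

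The sections were set side by side as 2 single libraries, with counting intervals and without a test. Krt36 was 24.1-fold higher in the AOM/DSS section than in the ApcMin/+ section (95% exact counting interval 16.3 to 37.2), with 719 against 26 counts. Krt14 was 11.6-fold higher (5.93 to 26.1) and Krt84 4.65-fold higher (3.21 to 6.92). Krt8, Krt19, Krt20 and Krt23 had ratios of 1.05, 1.02, 1.01 and 0.945. The fold changes of Krt36 and Krt14 in the models therefore start from different section levels, while their adenoma levels differed less: Krt14 had 13.6 to 21.4 CPM in AOM/DSS adenomas against 18.6 to 31.6 CPM in ApcMin/+ adenomas.

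Whether the adenoma change itself differed between models was tested as a difference of the changes. edgeR called 0 of 17218 genes and 0 of 27 keratins, with 1369 genes (7.95%) and 6 keratins at an unadjusted p under 0.05. DESeq2 called 191 genes and 3 keratins, Krt14, Krt17 and Krt36, each with a smaller change in AOM/DSS. By the other tools run, limma called no keratin.

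Genes for proteins that hold keratin filaments at cell junctions were counted from lists. Of 12 tested desmosome genes, 2 were higher in ApcMin/+ adenomas (Dsg3 and Pkp1), where 10.1% of all genes were higher, and none in AOM/DSS adenomas, where 2.38% were. Over both models 4 were higher (Pkp1, Dsg3, Dsg4 and Dsc3) and 1, Perp, was lower, where 18.3% of all genes were higher and 15.8% lower. Between the adenomas 4 were higher in AOM/DSS (Dsg3, Dsc2, Pkp3 and Pkp4), where 10.2% of all genes were. The desmosome median was 0.21 in ApcMin/+ and 0.33 in AOM/DSS, against 0.03 and 0.14 over all tested genes. Dsg3 and Dsc3 are also on the squamous list and Dsg4 on the hair follicle list, so these lists are not separate. Pkp1, a plakophilin that ties desmosomes to keratins, had 104, 108 and 93.2 CPM in ApcMin/+ adenomas against 41.8 CPM (1.28 ± 0.29, adjusted p = 0.0342). Ppl, a plakin that binds keratins, had 53.2, 51.0 and 48.2 CPM in ApcMin/+ adenomas against 14.0 CPM (1.86 ± 0.18, adjusted p = 0.00969), and 32.2, 33.0 and 36.8 CPM in AOM/DSS adenomas against 17.8 CPM (0.94 ± 0.17, adjusted p = 0.0381). For the next 3 lists the shares of all genes called were 16.4% in ApcMin/+ and 5.01% in AOM/DSS. In the list of 9 plakin and hemidesmosome genes 2 were higher in ApcMin/+, Ppl and Itga6, and 1 in AOM/DSS. Of 10 keratin partners, 2 were higher (Trim29 and Tgm1) and 1 lower (Vmac) in ApcMin/+, and 1 was higher (Trim29) and 1 lower (Hspb1, a small heat shock protein) in AOM/DSS. Among 14 other intermediate filament genes, 2 were higher and 1 lower in ApcMin/+, and 3 were lower in AOM/DSS, among them Des of smooth muscle. Vim, the filament of mesenchymal cells, was higher in ApcMin/+ adenomas (1.57 ± 0.30, adjusted p = 0.0259) and lower in AOM/DSS than in ApcMin/+ adenomas (-1.89 ± 0.20, adjusted p = 0.00459).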

How the data were processed

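The members, gene lists and tests were chosen with earlier results of these data known. Per the labels' protocols, total RNA from whole adenomas and sections was isolated with Trizol and made into single-read TruSeq libraries. The authors deposited expected counts and FPKM per gene, both with 1 added per the values in the file; 1 was subtracted and counts were rounded. Reads were placed on mm9, according to the submitters' processing notes; for the aligner, the counting tool and the use of strand, nothing is stated in the sources used. The tables hold no coordinates, so promoters come from another build. A table of ratios was not used.

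edgeR 4.0.16 (R 4.3.3) quasi-likelihood tests with TMM scaling used all 8 libraries in 4 groups (4 residual degrees of freedom), or model and tissue (5). Genes passed edgeR's filter (minimum count 10, minimum total 15), with Benjamini-Hochberg adjustment over 17218 genes. CPM uses TMM-scaled libraries. SE is the absolute log2 change over the square root of F. Each lone section was assumed to vary like the adenomas. Alternatives used DESeq2 1.42.0, limma 3.58.1 (log2 of FPKM plus 0.1 or 1), other scalings, no filter, fewer libraries and a replicate block. Tests were also run on simulated counts, with outcomes not given here. Those counts gave sections the same spread as adenomas, so they could not check that assumption. Every tested keratin was named, with statistics for those called. All 4 promoter motifs searched are reported. The keratin classes are this work's own lists.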

Additional observations from a re-analysis of the deposited data

Results flagged for a closer look

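The change of adenomas against their section was flagged as differing between the models in 4 keratins. Krt14, Krt17 and Krt36 were flagged by DESeq2's test of the difference, and Krt12 because all adenomas moved opposite ways. The same test by edgeR called none of them. Each value is the change in AOM/DSS minus that in ApcMin/+. Krt14 had a log2 difference of -4.08 by DESeq2 (adjusted p = 9.52e-05), with an edgeR adjusted p = 0.224. Krt36 had -3.81 by DESeq2 (adjusted p = 0.000363), with an edgeR adjusted p = 0.43. For both, the section of the AOM/DSS model stood above that of the ApcMin/+ model (6.00 against 0.516 CPM for Krt14, 36.0 against 1.49 CPM for Krt36). Krt17 had -3.36 by DESeq2 (adjusted p = 0.00393), with an edgeR adjusted p = 0.415. Its AOM/DSS adenomas had 2.27 to 5.16 CPM against 5.25 CPM in the section, all below it in TMM-scaled CPM, but adenoma 3 lay above it in FPKM (9.24 against 8.91) and in counts (121 against 105). Krt12 stood lower in all 3 AOM/DSS adenomas and higher in all 3 ApcMin/+ adenomas than in their sections, with an edgeR log2 difference of -4.20 that did not pass (adjusted p = 0.623); it had 1 count in the ApcMin/+ section.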

How the results depend on the processing

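Of 29 keratin calls, 13 kept direction and call under every alternative run, and 19 under every alternative that left out no adenoma. Calls of Krt6a and Krt32, which passed the filter through adenomas alone, are among the 13. How many calls of other genes were kept in this way was not counted. Over all alternatives 388 results stayed, 68 lost their call and 1 turned round: Krt19 over both models, at 0.04 when scaled to the epithelial genes. For the other losses the cause was not tested. Leaving out 1 adenoma at a time gave 5 to 13 called keratins for ApcMin/+ adenomas against their section (10 with all libraries), 0 to 2 for AOM/DSS (2), 1 to 6 between adenomas (5), and 9 to 15 over both models (12). Within the models the share of all genes called moved between these refits too, as given above. For the other comparisons that share is not given here. Neither these counts nor those below are therefore read as a keratin result. In AOM/DSS the count was 7 by DESeq2, 7 scaled to the epithelial genes, and 1 in its 4 libraries alone. The difference between models gave 3 by DESeq2 and 0 by edgeR. Counting only the 19 keratins that reached the filter level in a section gave 1 in AOM/DSS and 3 between adenomas. This count and the scaling to Epcam and Cdh1 were chosen after seeing the data. Adenoma numbers did not pair samples (correlations of -0.090, -0.294 and -0.257), and the replicate block in the 6 adenomas alone left 1 keratin, Krt17, against 7 without the block. Scaled to epithelial genes, the share of called genes that were higher was 92.8% in ApcMin/+ (61.3% with TMM), 79.3% in AOM/DSS (47.4%) and 89.0% over both (53.6%). The ratio of type I to type II FPKM moved less than its spread when 1 was not subtracted. With 1 section per model, no spread between sections could be measured.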
